A study of Mus musculus with 6 samples.

Results

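Coil and Faf1 are mouse genes whose transcripts carried short poly(A) tails in late spermatocytes and long ones in round spermatids (RS). Coil encodes coilin, the scaffold protein of Cajal bodies, nuclear structures in which small nuclear ribonucleoproteins (snRNPs) and other small RNA-protein particles mature. Faf1 encodes a protein first found through its binding to the death receptor FAS, which carries a UBX domain and works as a cofactor of the AAA ATPase VCP in the handling of ubiquitinated proteins. The poly(A) tail is added to most mRNAs in the nucleus and is bound by poly(A)-binding proteins, and its length is related to mRNA stability and translation. Male germ cells are known for changing the tails of stored mRNAs, because transcription stops while spermatids still have to make proteins.

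Both genes were selected on measured values of these same samples, since their contigs stood among those with the largest increase in mean tail length from late spermatocytes to RS. A contig is a reference transcript to which reads were aligned. The contigs whose symbol was Coil or Faf1 numbered 3 of the 12114 contigs with reads, 2 for Coil and 1 for Faf1. Tail and accumulation differences of these contigs between the cell types are therefore given here as a description, without a test.

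The samples came from adult male C57BL/6J/B6 wild-type mice, with no treatment and no other allele. Germ cells of whole testis were sorted by Hoechst fluorescence and light scatter into pachytene/diplotene (P/D) spermatocytes and RS, after propidium iodide had excluded dead cells. There were 3 samples of each cell type, and each sample was a pool of mRNA from 3 mice. All germ cell types were taken from the same mice. By the study's microscopy the P/D gate was clearly less pure than the RS gate and held many cells of other types, so a P/D value here is that of an enriched population. Native poly(A) RNA was sequenced on nanopores, so that 1 read is 1 RNA molecule and its tail is measured from the current. Each cell type was 1 multiplexed library of its 3 samples, and both libraries were prepared in parallel, so cell type and library cannot be told apart in any comparison of P/D with RS.

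The files held between 244004 and 474688 reads per sample. Of 10 markers of each cell type, the P/D list held 0.293 to 0.336% of reads in P/D samples and 0.165 to 0.189% in RS samples, and the RS list 0.103 to 0.125% and 0.305 to 0.317%. Transcripts of a list for elongating spermatids, many of them made from the RS stage on, took 0.192 to 0.272% of reads in P/D samples and 2.52 to 3.00% in RS samples. At most 7 reads per sample came from each of the lists for spermatogonia, Sertoli cells and Leydig cells. Of the 6 genes on each of these lists, only 1, 1 and 3 had a contig. These low counts therefore cannot show how many such cells were present. The part of cells outside the intended type in the results was not tested.

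The annotated 3′ ends of the transcripts are shown because the tail begins where a transcript ends. Where the reads themselves ended was not examined. The last 30 annotated bases, from the GENCODE vM21 annotation of GRCm38, are printed 5′ to 3′ with the poly(A) signal in capitals. They are chr11:88991584-88991613 for Coil and chr4:109963931-109963960 for Faf1, both on the plus strand.
Coil: aatttttaAATAAAatcatatcaaactcaa
Faf1: ataacagttATTAAAtgttatttgaatgtg
Coil ends with the signal AATAAA, 16 bases before the last base. Faf1 ends with the variant ATTAAA, 15 bases before it. In the last 100 bases on the transcript strand, AATAAA was found in 65.2% and ATTAAA in 20.4% of 6901 tested transcripts with an annotation, and each gene held only 1 of the 2 there. TTTTAT and TTTTAAT, forms of the cytoplasmic polyadenylation element, were found in 11.5% and 4.39% of these transcripts and were absent from this window in both genes.

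Coil lies on chromosome 11 and was represented by Coil-201 (ENSMUST00000036649, positions 88973935 to 88991613, 7 exons, 2607 bases) and Coil-202 (ENSMUST00000107898, positions 88970252 to 88991613, 11 exons, 3120 bases). They share the coding sequence of 1719 bases, the 874 bases after it and the last exon (88990668 to 88991613). All 2607 bases of Coil-201 are the end of Coil-202, which has 513 further bases upstream, so a read that stops before those bases cannot be assigned to 1 of the 2. Their values are hence not independent, and values of both contigs pooled are given beside them. Faf1-201 (ENSMUST00000102724) lies on chromosome 4, positions 109676588 to 109963960, with 19 exons and 4468 bases, of which 1947 are coding and 2081 follow the coding sequence. The part after the coding sequence was longer than in 62.2% of 6466 tested transcripts for Coil and 84.1% for Faf1. Coil-202 shares 197 exon bases with the pseudogene transcript 2210409E12Rik-201, which had 0 reads. Of the 615 reads of the 3 contigs, 1 was also listed on a contig outside these 3.

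The mean poly(A) tail of Coil was more than 90 nt longer in RS than in P/D on both contigs. On Coil-201 the P/D samples had means of 94.8, 68.6 and 70.3 nt, from 20, 29 and 34 reads. The RS samples had means of 186, 174 and 171 nt, from 32, 56 and 34 reads. The lowest RS sample thus lay far above the highest P/D sample, and P/D replicate 1 stood above the other two P/D samples. The group means of 77.9 ± 14.7 and 177 ± 8.27 nt (SD, n = 3 each) lay 99.0 nt apart.

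On Coil-202 the means were 90.4, 74.97 and 87.3 nt in P/D, from 27, 42 and 22 reads, and 181, 185 and 172 nt in RS, from 35, 46 and 29 reads. The groups again did not overlap, with 84.2 ± 8.18 nt and 179.6 ± 6.75 nt (SD, n = 3 each) and a difference of 95.4 nt. Within samples, Coil-202 minus Coil-201 was -4.40, 6.41 and 17.0 nt in P/D, and -4.88, 11.8 and 1.26 nt in RS. Neither contig had the longer tails in all samples of a cell type. With both contigs pooled, Coil tails were 92.3, 72.4 and 77.0 nt in P/D and 184, 179 and 171 nt in RS.

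Faf1 varied less between samples. Its tails had means of 88.8, 88.7 and 97.8 nt in P/D, from 27, 42 and 40 reads, and of 187, 181 and 185 nt in RS, from 32, 41 and 27 reads. The group means were 91.8 ± 5.23 nt and 184.5 ± 3.11 nt (SD, n = 3 each), a difference of 92.8 nt. All RS samples lay above all P/D samples.

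**Figure D1:**
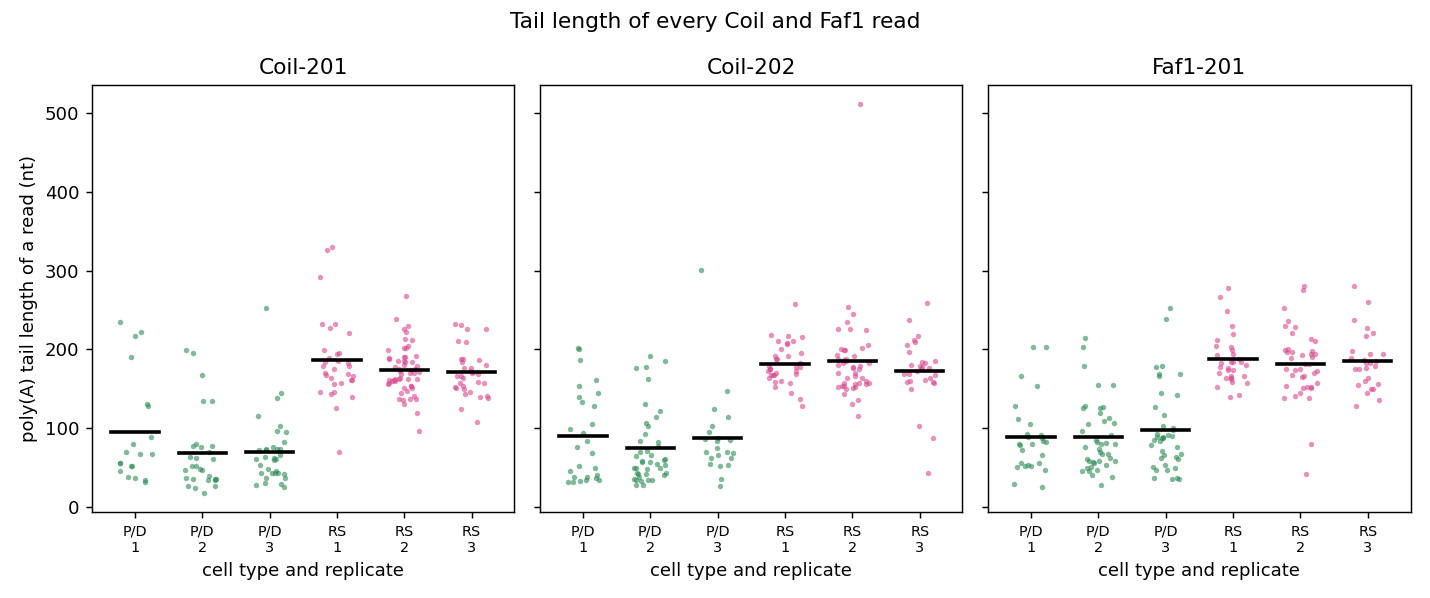
Poly(A) tail length in nt (y axis) of every read of Coil-201, Coil-202 and Faf1-201, by sample (x axis, P/D green, RS pink); each point is 1 read and each black bar the mean of the sample. P/D reads crowd between 30 and 120 nt with a tail of longer reads, while RS reads crowd between 120 and 210 nt, and the bars of the groups do not overlap.

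The choice of both genes went by the size of this increase. It is placed here among the 1827 transcripts for which each sample held 20 reads or more, a filter that was set here. Coil-201 ranked 1, Coil-202 ranked 3 and Faf1-201 ranked 5. Ly6k (98.5 nt) and Ndufb10 (94.1 nt) stood between them, and the next ranks outside were Thoc5 (91.2 nt), Fam98a (90.9 nt) and Fnta (90.4 nt). Thoc5, Fam98a and Fnta differed from Faf1 by less than the SD of its P/D samples.

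The rank of the levels differed between the genes. The P/D mean of Coil-201 was higher than that of 2.96% of the 1827 transcripts, that of Coil-202 higher than 7.17% and that of Faf1 higher than 18.9%. In RS the shares were 87.6, 92.1 and 96.4%. Coil-201 thus stood among the shortest P/D tails and Faf1 among the longest RS tails, though the sample means of both genes overlapped in each cell type. Low P/D ranks and high RS ranks follow in part from the selection on the increase, so they are descriptions only. The median transcript of the 1827 had a mean tail of 105.5 nt in P/D and of 157 nt in RS, and the median difference was 49.9 nt.

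**Figure D2:**
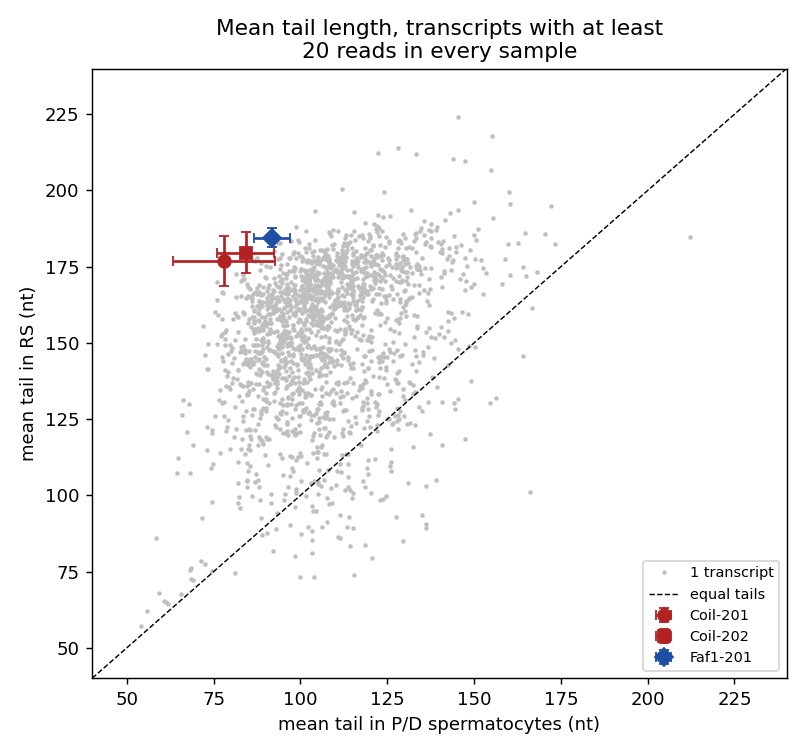
Mean tail in RS (y axis, nt) against mean tail in P/D spermatocytes (x axis, nt) of 1827 transcripts, each with 20 reads or more in all samples (grey), with Coil-201, Coil-202 and Faf1-201 in colour and SD bars over 3 samples. The members lie at the upper left edge of the cloud, 92.8 to 99.0 nt above the dashed line of equal tails, and Faf1 lies right of and above Coil.

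Lengthening was general. Among 6990 transcripts tested with limma, 54.2% were called longer and 1.69% shorter in RS, at a Benjamini-Hochberg adjusted p below 0.05. In 87.7% of the 1827 transcripts with 20 reads or more, every RS sample lay above every P/D sample. The groups of all 3 members did not overlap either, which nothing is read from, since the members were selected on this contrast.

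Within a sample, Coil can be set beside Faf1, although the same sample means entered the increase on which both were selected. In P/D, Coil-201 minus Faf1 was 6.03, -20.2 and -27.5 nt, with a mean of -13.9 ± 17.6 nt (SD, n = 3). In RS it was -0.949, -7.63 and -14.3 nt, with a mean of -7.61 ± 6.66 nt (SD, n = 3). Coil-201 had the shorter tails in 2 of 3 P/D samples and in 3 of 3 RS samples. With both contigs pooled, Coil minus Faf1 was 3.50, -16.4 and -20.8 nt in P/D. In RS the pooled differences were -3.5, -2.33 and -13.7 nt. On Coil-202 alone, RS replicate 2 had a mean of 185 nt, above the 181 nt of Faf1. No p-value is given, since an exact sign-flip test on 3 pairs cannot go below 0.25.

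The reads behind these means fell mostly in different tail classes in P/D and in RS. Tails of 30 to 120 nt form the ~60-nt class of these cells and tails of 120 to 210 nt the ~150-nt class. For Coil, both contigs pooled, the ~60-nt class held 68.1, 74.6 and 82.1% of reads in P/D samples and 1.49, 2.94 and 6.35% in RS samples. The ~150-nt class held 25.5, 16.9 and 7.14% in P/D and 79.1, 83.3 and 79.4% in RS. The P/D samples were less even than the RS samples, and P/D replicate 1 had the largest share of longer tails.

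For Faf1 the ~60-nt class held 74.1, 76.2 and 75% of reads in P/D samples, and 0, 4.88 and 0% in RS samples. A count of 0 allows shares of up to 9.38% of the 32 reads of RS replicate 1 and 11.1% of the 27 reads of RS replicate 3. The ~150-nt class held 18.5, 19.0 and 20% in P/D and 81.3, 73.2 and 77.8% in RS. These floors cover counting error only.

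Both genes were more sharply divided than the pool of all reads. Over all reads, the ~60-nt class held 61.1 ± 1.54% in P/D and 22.3 ± 1.64% in RS (SD, n = 3 each). Coil had 74.96 ± 7.03% and 3.59 ± 2.49%, and Faf1 75.1 ± 1.06% and 1.63 ± 2.82% (SD, n = 3 each). The ~60-nt share of all reads in RS was above the highest RS sample of either gene. This difference follows in part from the selection, so it was not tested.

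**Figure D3:**
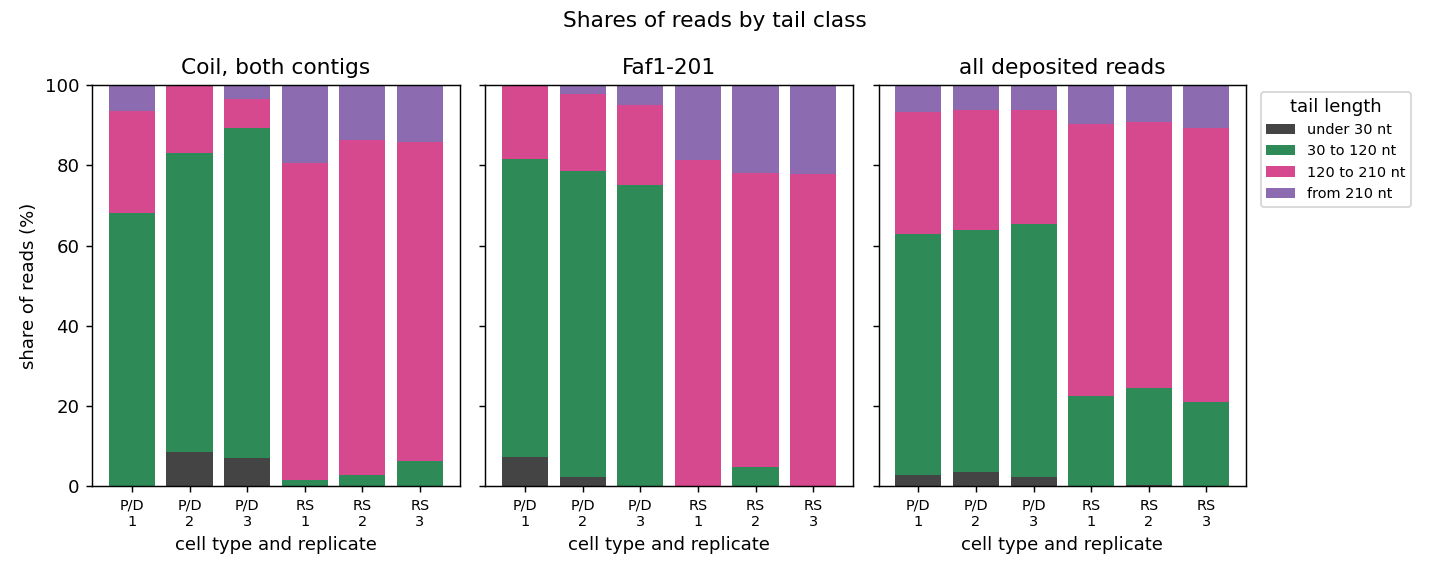
Stacked shares of reads (y axis, %) in 4 tail classes for Coil (both contigs), Faf1-201 and all deposited reads, by sample (x axis). The green class of 30 to 120 nt is the largest in every P/D sample and holds at most 6.35% of Coil reads and 4.88% of Faf1 reads in RS samples, against 22.3% on average over all reads.

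Bins of 30 nt show where the reads of each gene lay. Of 174 Coil reads in P/D, 69 had tails of 30 to 60 nt, 48 of 60 to 90 nt and 14 of 90 to 120 nt. Of 109 Faf1 reads in P/D, 29, 35 and 18 fell in these bins. Pooled over the samples, the most frequent bin was 30 to 60 nt for Coil and 60 to 90 nt for Faf1. This order was not seen in every sample, as P/D replicate 3 had 16 Coil reads at 30 to 60 nt and 23 at 60 to 90 nt, and P/D replicate 2 had 13 and 12 Faf1 reads. Median tails in P/D were 69.0, 57 and 67.4 nt for Coil and 80.4, 78.1 and 87.4 nt for Faf1, lower for Coil in 3 of 3 samples. For Coil-201 alone, the median tail minus that of Faf1 was -21.7 ± 7.52 nt (SD, n = 3).

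In RS both genes peaked in the same bin. Between 150 and 180 nt lay 103 of 232 Coil reads and 35 of 100 Faf1 reads, and between 180 and 210 nt 57 and 31 reads. Tails of 210 nt or more were carried by 36 Coil and 21 Faf1 reads, against 5 of 174 and 3 of 109 in P/D. The longest, a Coil-202 read of 511 nt in RS replicate 2, stood alone, and the next longest was a Coil-201 read of 330.4 nt in RS replicate 1.

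A minority of P/D reads had tails of the length common in RS. In P/D, 28 of 174 Coil reads and 21 of 109 Faf1 reads were 120 to 210 nt long. The part of the other cells of the P/D gate in these reads was not tested. In the RS samples, 8 Coil and 2 Faf1 reads were shorter than 120 nt, and none was shorter than 30 nt. Within a P/D sample the reads of Coil-201, Coil-202 and Faf1 had SDs of 53.8, 52.9 and 48.2 nt on average, and within an RS sample 38.2, 41.9 and 37.9 nt. These averages were lower in RS, as was the median spread of the 1827 transcripts (56.7 nt in P/D, 42.0 nt in RS), but the samples overlapped for each contig. The SD of Coil-202 in RS replicate 2, the sample with the longest read, was 57.4 nt, above all its P/D samples (46.3 to 57.2 nt). For Coil-201, RS replicate 1 had 53.6 nt against 68.0, 49.8 and 43.6 nt in P/D, and for Faf1, RS replicate 2 had 44.4 nt against 44.3 nt in P/D replicate 2.

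The amounts of the transcripts are on another scale than their tails, and the members were selected on tails, so the sizes of these changes are not compared. Accumulation is given as counts scaled to a common library size (CPM) after TMM normalization, a share of the library in which fewer cells of a type and less RNA per cell cannot be told apart. Coil-201 had 88.0, 101 and 139 CPM in P/D and 110, 131 and 109 CPM in RS, so the groups overlapped. Its log2 fold change, RS over P/D, was 0.11 (SE 0.23). Coil-202 had 119, 146 and 89.7 CPM in P/D and 121, 108 and 92.6 CPM in RS, again overlapping, with a log2 fold change of -0.16 (SE 0.23).

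Pooled over both contigs, Coil had 207, 246 and 228 CPM in P/D and 231, 239 and 201 CPM in RS. The means were 227 ± 19.7 and 224 ± 19.9 CPM (SD, n = 3 each), and the log2 fold change was -0.024 (SE 0.17). Faf1 had 119, 146 and 163 CPM in P/D and 110, 96.0 and 86.2 CPM in RS. Its means were 143 ± 22.3 and 97.5 ± 12.1 CPM (SD, n = 3 each), and its log2 fold change was -0.56 (SE 0.23).

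Among 6005 transcripts tested with edgeR, 32.6% were called higher and 30.8% lower in RS, and the median log2 fold change was -0.03. Higher calls were 51.4% of all calls with edgeR and 64.2% with DESeq2. The log2 fold change of Faf1 was -0.51 with DESeq2 and between -0.70 and -0.43 when each sample was left out in turn. It was past the threshold in only 5 of 10 alternative settings, and not with DESeq2, so no call is read from it.

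**Figure D4:**
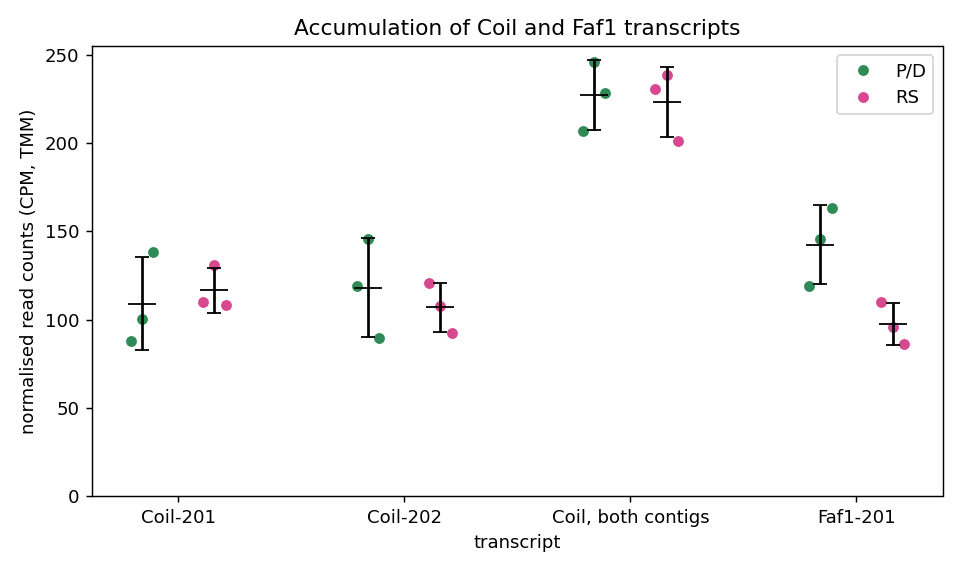
Normalised read counts (CPM after TMM, y axis from 0) of each Coil contig, of both pooled and of Faf1-201 in P/D (green) and RS (pink); points are samples, and the black marks are the mean and SD over 3 samples. The groups overlap for Coil, and the means of Faf1 are 143 CPM in P/D and 97.5 CPM in RS.

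The transcripts with tails most like those of Coil-201, by the Euclidean distance over the 6 sample means, were Ly6k (24.0 nt), Thap4 (24.5 nt), Ndufb10 (25.2 nt), Irak1bp1 (26.0 nt) and Nt5m (26.6 nt). The search covered 1825 transcripts of other genes, again with 20 reads or more per sample. Ly6k, a GPI-anchored protein needed for sperm function, went from 78.2 ± 4.67 to 177 ± 2.64 nt (SD, n = 3 each). Faf1 came only in place 50 by this measure (38.2 nt).

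Most like Faf1, among 1826 transcripts, were Rnf187 (13.2 nt), Ywhaq (14.2 nt), Acbd6 (16.2 nt), Rpl4 (16.4 nt) and Taf10 (18.3 nt). Rnf187 went from 94.7 ± 1.09 to 179 ± 0.605 nt and Rpl4, a ribosomal protein transcript, from 88.7 ± 3.86 to 176 ± 1.34 nt (SD, n = 3 each). Coil-201 came in place 226. Coil-201 and Faf1 thus had nearer neighbours than each other. This holds for Coil-201 only, as no place is given for Coil-202. The group means of Coil-202, 84.2 nt in P/D and 179.6 nt in RS, lay closer to those of Faf1 than those of Coil-201 did. The distances are descriptions over 6 samples of 2 libraries.

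Of the genes that act with coilin, 48 genes of Cajal bodies and snRNP assembly were listed and 32 had a contig. Tails could be tested for 24 transcripts, of which 14 (58.3%) were longer and 0 shorter in RS, with a median difference of 31.4 nt, beside 54.2% and 37.4 nt over all transcripts tested. Prmt5, the arginine methyltransferase that modifies Sm proteins, had the largest tail difference, 112 nt (SE 17.2, limma adjusted p = 0.0022). It rose from 62.9 ± 9.84 to 175 ± 33.8 nt (SD, n = 3 each), but on 10, 16 and 20 reads in P/D and 2, 6 and 2 in RS.

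Zpr1, a zinc finger protein that interacts with SMN, rose from 87.6 ± 2.27 to 168 ± 6.15 nt (SD, n = 3 each, limma adjusted p = 0.00049). Gemin7, a subunit of the SMN complex, rose from 93.8 ± 4.43 to 173 ± 7.91 nt (SD, n = 3 each, limma adjusted p = 0.00049). Both stood below Coil in the size of the difference. Ncbp2 and Ncbp1, the subunits of the nuclear cap-binding complex, rose least among those called, by 29.6 nt (SE 8.44, limma adjusted p = 0.025) and 29.98 nt (SE 5.54, limma adjusted p = 0.00468).

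In accumulation, 3 of 23 tested transcripts of this list (13.0%) were higher and 8 (34.8%) lower, beside 32.6% and 30.8% over all transcripts tested, and the median of their log2 fold changes was -0.34, beside -0.03. Snrpb, a core Sm protein, fell from 36, 37 and 37 reads in P/D to 1, 2 and 5 in RS, a log2 fold change of -4.15 (SE 0.39, edgeR adjusted p = 2.71e-12). Prmt5 fell too, by 2.59 on the log2 scale (SE 0.42, edgeR adjusted p = 1.08e-06). Ddx20, the DEAD-box helicase of the SMN complex, rose by 1.40 (SE 0.19, edgeR adjusted p = 2.56e-08), and its tail by 59.7 nt (SE 8.32, limma adjusted p = 0.00153). Ncbp2 rose by 1.12 (SE 0.25, edgeR adjusted p = 0.000127), and the third was Ice1, a subunit of the little elongation complex, with 0, 0 and 1 read in P/D and 15, 25 and 12 in RS. Ice1 passed the filter on counts only through its RS reads, and Snrpb and Prmt5 only through their P/D reads.

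Of the genes that act with FAF1 on the side of VCP, 33 were listed and 24 had a contig. Tails could be tested for 35 transcripts of 21 genes, of which 19 (54.3%) were longer and 0 shorter, practically the share over all transcripts tested (54.2%). Their median difference was 41.0 nt, beside 37.4 nt. Derl2, a channel protein of endoplasmic reticulum quality control, had the largest difference on its contig ENSMUST00000171041, 107 nt (SE 14.0, limma adjusted p = 0.00214), on 0, 2 and 3 reads in P/D and 5, 12 and 11 in RS. Because 1 P/D sample had no read, that fit rests on the other two.

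Ubxn8 and Ubxn10, which carry a UBX domain as FAF1 does, rose by 84.2 nt (SE 6.73) and 79.5 nt (SE 6.83), each with a limma adjusted p of 0.00049. This Ubxn10 contig, ENSMUST00000105811, reached 184 ± 2.73 nt in RS (SD, n = 3), near Faf1. Ubxn10 contig ENSMUST00000105810 rose by 63.8 nt (SE 10.6, limma adjusted p = 0.00299). The smallest called rises were on contigs of Svip and Atxn3. Svip, a small inhibitor of VCP-dependent degradation, rose by 27.1 nt on contig ENSMUST00000098414 (SE 7.85, limma adjusted p = 0.0266). On Svip contig ENSMUST00000209193 the rise of 14.9 nt was not called (SE 5.32, limma adjusted p = 0.054). Atxn3 contig ENSMUST00000161011, a deubiquitinase transcript, rose by 39.2 nt (SE 7.42, limma adjusted p = 0.00515). Faf2, the nearest relative of Faf1 on the list, had 129 ± 18.0 nt in P/D and 124 ± 10.2 nt in RS (SD, n = 3 each, limma adjusted p = 0.687), and Vcp 105 ± 6.91 and 130 ± 15.7 nt (SD, n = 3 each, limma adjusted p = 0.0683). Faf2 and Vcp were named after their values were seen.

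In accumulation, 10 of 31 tested transcripts of the VCP list (32.3%) were higher and 5 (16.1%) lower, beside 32.6% and 30.8% over all transcripts tested, and the median of their log2 fold changes was -0.023. Atxn3 rose on both contigs named by the rule, by 2.63 (ENSMUST00000021606, SE 0.41, edgeR adjusted p = 4.54e-07) and 2.05 (ENSMUST00000161011, SE 0.26, edgeR adjusted p = 4.67e-09). Ufd1, the VCP adaptor that recruits ubiquitinated substrates, rose by 2.09 on contig ENSMUST00000115578 (SE 0.34, edgeR adjusted p = 1.07e-06). Atxn3 contig ENSMUST00000021606 had 4, 3 and 2 reads in P/D and 21, 35 and 22 in RS. This Ufd1 contig had 5, 7 and 5 in P/D and 23, 45 and 32 in RS. Both passed the filter on counts only through their RS reads. Ubxn1, a further UBX protein, fell by 1.24 (ENSMUST00000238036, SE 0.28, edgeR adjusted p = 0.00021) and fell by 1.17 (ENSMUST00000166407, SE 0.29, edgeR adjusted p = 0.000487). Ubxn1 contig ENSMUST00000096255 was not called, with a log2 fold change of -0.57 (SE 0.31, edgeR adjusted p = 0.107). Vcp fell by 1.07 (SE 0.19, edgeR adjusted p = 3.08e-06).

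On the side of FAS, 2 of 14 listed genes had a contig, and both transcripts that could be tested were of Daxx, a nuclear protein first found as a partner of FAS. Neither passed the test for tail length. Contig ENSMUST00000170075 had 114 ± 7.04 nt in P/D and 99.0 ± 32.0 nt in RS (SD, n = 3 each, limma adjusted p = 0.469). Its accumulation fell by 0.77 on the log2 scale (SE 0.34, edgeR adjusted p = 0.0451), a call lost when any sample but P/D replicate 1 was left out.

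**Figure D5:**
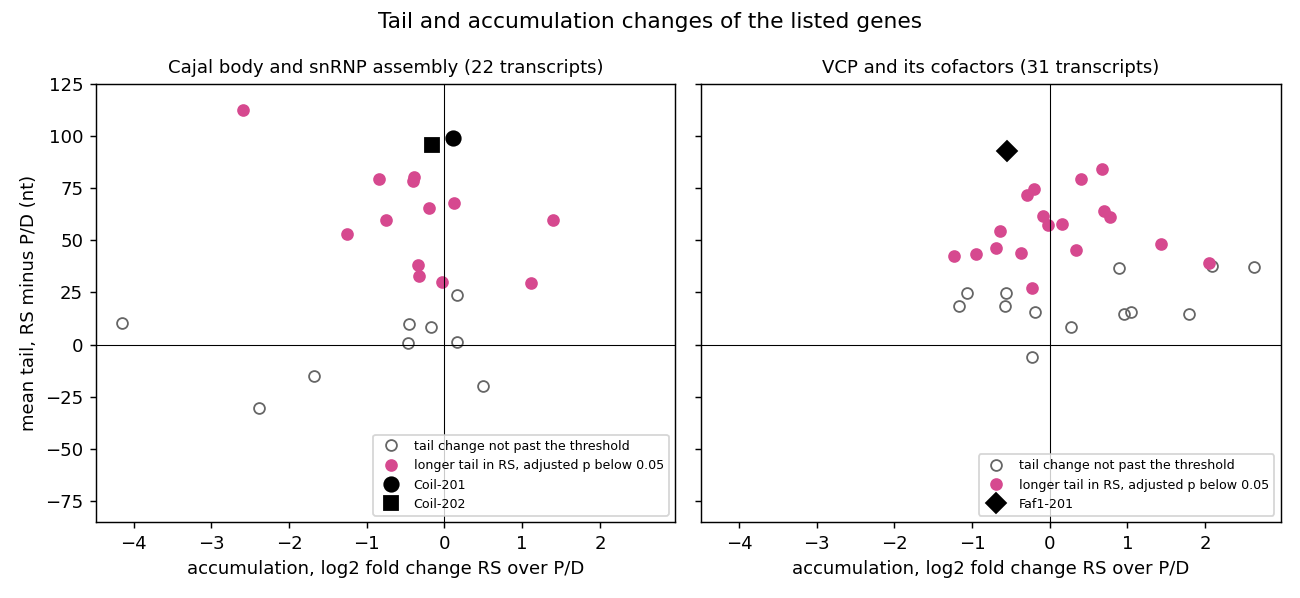
Mean tail difference, RS minus P/D (y axis, nt), against the log2 fold change in accumulation, RS over P/D (x axis), for 22 transcripts of the Cajal body and snRNP assembly list and 31 of the VCP list that both fits tested; filled pink points had a longer tail at a limma adjusted p below 0.05, and black symbols are Coil-201, Coil-202 and Faf1-201. Filled points number 13 and 18, and of the plotted transcripts only Prmt5 lies above Coil.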

How the data were processed

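Native RNA reads were basecalled and demultiplexed by the authors. Alignment to GENCODE transcripts of GRCm38 was done with minimap2 and tail estimation with Nanopolish. The authors deposited read counts per contig, not normalized, and a second table with 1 other measurement, the tail length of each read in nt. Both tables gave equal counts for all 12114 contigs, with 244004 to 474688 reads per sample. Direct RNA reads carry no molecular identifiers and are not amplified.

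Members, gene lists and tests were chosen with earlier results of these data known. Mean tails per sample were tested with limma 3.58.1 in R 4.3.3 where a transcript had 10 reads or more in 2 replicates of either cell type and a mean in 2 of each. For counts, edgeR 4.0.16 (TMM, filterByExpr, quasi-likelihood) was used, and DESeq2 1.42.0 in its place as an alternative. Both tools' p-values were adjusted by Benjamini-Hochberg over all transcripts tested, with a threshold of 0.05. Samples are pools of mice, and p-values measure the spread between these pools. Both tests were checked on simulated data. Per the study's reporting summary, each mouse gave every germ cell type, which is the basis for pairing P/D and RS samples by replicate number, although which mice went into which pool is not given in the sources used here. Same-numbered samples correlated in their deviations from the group means by r of -0.0106 to 0.0771 in tails and 0.0278 to 0.238 in accumulation over 1827 transcripts. Samples of different number gave r of -0.0816 to 0.0633 in tails and -0.169 to 0.119 in accumulation, so the ranges overlapped.

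Named were all contigs of Coil and Faf1, the 5 transcripts most like the contig of each gene with most reads, and, from each list, the called transcripts with the 3 largest and 2 smallest tail differences and the 2 largest log2 fold changes in either direction. Alternatives were other read filters, the median tail, tails of 10 to 300 nt, reads on 1 contig, pooled contigs, the replicate number as a block, the methods' two-tailed equal-variance test, other normalization and leaving out each sample. Annotation came from GENCODE vM21, which held 11344 of 11517 annotated transcripts. Scripts ran in Python 3.11.15.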

Additional observations from a re-analysis of the deposited data

How the results depend on the processing

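Of the alternatives to each result, 136 kept the direction and the side of the threshold, or moved by less than the spread. With at least 20 reads in every sample, 1592 transcripts were longer and 45 shorter in RS, with 7 longer on the Cajal body list and 9 on the VCP list, since fewer transcripts were tested. Without a filter on counts, 3404 transcripts were higher. With median tails the difference was 111 nt for Coil-201 and 99.6 nt for Faf1. The log2 fold change of Coil turned from 0.11 to -0.024 with both contigs pooled and to -0.051 without P/D replicate 1. Leaving out each sample gave 3230 to 3848 longer and 74 to 179 shorter transcripts (179 without P/D replicate 2 and 74 without RS replicate 2), 2022 to 2206 higher and 1770 to 1988 lower, tail differences of 94.3 to 107.5 nt for Coil and 91.2 to 95.8 nt for Faf1, and log2 fold changes of -0.051 to 0.29 for Coil and -0.70 to -0.43 for Faf1. On the Cajal body list it gave 11 to 14 longer, 3 to 4 higher and 6 to 9 lower, on the VCP list 16 to 21, 8 to 11 and 5 to 7, and on the Fas list 0 to 1 lower. The causes were not tested.

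With the replicate block, which pairs P/D and RS samples of the same number, 3577 transcripts were longer, 92 shorter, 1979 higher and 1871 lower, the Coil and Faf1 tail differences stayed at 99.0 and 92.8 nt, and no count of calls moved by over 1.5 times. Depth limits the members to 20 to 56 reads per contig and sample, and transcripts with fewer reads, such as Prmt5 and Derl2, have less certain means.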
